A study of Mus musculus with 9 samples.

Results

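The proliferin genes Prl2c2, Prl2c3, Prl2c4 and Prl2c5 were followed across 9 RNA-seq libraries of D2.0R cells. These 4 genes, of 23309 in the deposited tables, were taken by symbol, and they were picked because earlier work on the same libraries showed them lower on collagen. Their own levels and differences are therefore given as a description, without a test. D2.0R is a mouse mammary tumour line that came from hyperplastic alveolar nodules, and it stays quiescent on a basement membrane extract (BME). Every library came from this 1 line, held in low-glucose medium with 2% serum. On BME the medium also held 2% of a commercial BME, and in the collagen group it held BME plus collagen. The groups were BME day 1, BME day 5, and BME + COL1 day 5, in which type I collagen (COL1) had been mixed into the matrix to induce proliferation. Each group had 3 biological replicates, named a, b and c. Between BME + COL1 day 5 and BME day 1 both the matrix and the day differed, and each group served in 2 of the 3 comparisons.

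Proliferins are secreted glycoproteins of the prolactin family. Trophoblast giant cells of the mouse placenta make them in large amounts, and they promote the growth of blood vessels there. They were first found in cultured mouse fibroblasts as genes that serum and other mitogens switch on, which gave them their second name, mitogen-regulated proteins. The secreted protein carries mannose 6-phosphate and binds the receptor for that sugar, the product of Igf2r. The promoter contains a well-studied composite element at which AP-1 (Fos and Jun proteins) and the glucocorticoid receptor (Nr3c1) act together.

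The 4 symbols stood for 3 loci. All lay on chromosome 13 of build mm9 within 401025 bases, each with 5 exons. The Prl2c3 model ran from 12883088 to 12892346 on the minus strand. The Prl2c4 model, from 12883083 to 12892325 on the same strand, occupied the same place, with 3 of 5 exons ending at the same bases and 831 exonic bases in common. The 2 models differed by 21 bases found only in Prl2c3 and 5 found only in Prl2c4. A RefSeq gene table of a later build lists Prl2c4 as a synonym of Prl2c3. Prl2c2 lay at 13088391 to 13097597, also on the minus strand, and Prl2c5 at 13275049 to 13284107 on the plus strand. Spliced models were 790, 852, 836 and 694 bases long for Prl2c2, Prl2c3, Prl2c4 and Prl2c5.

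The coding sequences show how little there was to tell the abundant loci apart. Prl2c2 and Prl2c3 (675 coding bases each in the mm9 reference, by the GENCODE vM1 annotation) were 99.6% identical and differed at 3 bases. Counted from the A of the start codon, with the Prl2c2 base first, the differences were T14C, C200A and T319G. The reference sequence around each is printed below, 5′ to 3′, with the differing base in capitals. The first pair starts at the start codon, and the others span 20 bases on either side.
Prl2c2 around T14C: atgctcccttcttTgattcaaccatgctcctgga
Prl2c3 around T14C: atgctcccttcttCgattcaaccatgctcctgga
Prl2c2 around C200A: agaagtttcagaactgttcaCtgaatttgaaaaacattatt
Prl2c3 around C200A: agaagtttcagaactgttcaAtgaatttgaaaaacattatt
Prl2c2 around T319G: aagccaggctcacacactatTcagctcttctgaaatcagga
Prl2c3 around T319G: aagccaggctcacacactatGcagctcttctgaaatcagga

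Prl2c5 stood further off, with 20 mismatches to Prl2c2 over 669 coding bases (97.0% identity) and 21 to Prl2c3 (96.9%). Of all stretches of 100 bases in the spliced Prl2c2 model, 68.5% also occurred at another Prl2c locus. The relative Prl2c1, not a member, was counted among these loci. The share was 62.7% for Prl2c3 and 0.0% for Prl2c5. With stretches of 50 bases the shares were 89.3%, 77.5% and 23.3%. Part of the latter sharing may be with Prl2c1, whose own share was 19.1% at 50 bases and 0.0% at 100. A read of such a length from most of Prl2c2 therefore matched Prl2c3 equally well, while longer reads from Prl2c5 could be placed. A further copy of exon 4, 98.9% identical over 183 bases, lies at 13414257 to 13414439 of the same chromosome, and no model in the tables covers it. For these reasons the summed level of the 4 symbols is given beside each member, and the split between Prl2c2, Prl2c3 and Prl2c4 is uncertain.

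Over the 250 bases before the annotated start, Prl2c2 and Prl2c3 differed at 4 positions (98.4% identity), and Prl2c2 and Prl2c5 at 10 of 248 aligned positions (96.0%). The mm9 sequences of Prl2c2 (chr13:13097660-13097909, minus strand) and Prl2c5 (chr13:13274732-13274981, plus strand) are printed because these are the abundant and the near-silent ends of the family. Capitals mark AGATAA, the letters that GATA factors recognise.
Prl2c2 promoter: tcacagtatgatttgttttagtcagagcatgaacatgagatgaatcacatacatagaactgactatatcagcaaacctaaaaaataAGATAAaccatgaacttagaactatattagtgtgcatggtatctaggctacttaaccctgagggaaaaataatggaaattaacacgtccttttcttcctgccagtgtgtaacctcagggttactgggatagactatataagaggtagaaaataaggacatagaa
Prl2c5 promoter: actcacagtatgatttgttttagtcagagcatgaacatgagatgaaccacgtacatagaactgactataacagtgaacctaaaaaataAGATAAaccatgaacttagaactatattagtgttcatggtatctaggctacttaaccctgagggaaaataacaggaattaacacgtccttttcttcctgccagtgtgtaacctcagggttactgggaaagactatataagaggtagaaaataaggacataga

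AGATAA began 164 bases before the start in Prl2c2 and Prl2c3 and 162 bases before it in Prl2c5. AGATAA or its reverse complement TTATCT occurs in 9.99% of 32851 RefSeq mouse promoters of the same length. The AP-1 letters TGACTCA and their reverse complement TGAGTCA, found in 4.46% of those promoters, were not among these 250 bases in any of the 3 loci. Only these exact letters were sought. Near matches, such as ttagtca in both printed sequences, were not counted, so an AP-1 site in this stretch is not excluded. Bases further upstream were not searched. The printed Prl2c5 sequence opens with actca and that of Prl2c2 with tca, the letters that end TGACTCA. A match that crosses the edge of the stretch would have been missed. A match of letters describes the sequence alone.

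Together the proliferin genes were among the most abundant messages on BME and stood at a modest level on the collagen-containing matrix. Levels are in FPKM (fragments scaled to the length of the model and to the mapped fragments of the library). On BME day 1 the summed level was 694.0 FPKM in replicate a, 619.3 in b and 1411 in c. On BME day 5 it was 674.1 FPKM in a, 171.4 in b and 626.3 in c. On BME + COL1 day 5 it was 23.9 FPKM in a, 23.5 in b and 22.1 in c. The collagen libraries lay together and far below every BME library, while 1 BME library of each day stood apart from its group, c at day 1 and b at day 5. In rank among all genes the sum stood 82nd, 91st and 15th at BME day 1 and 75th, 252nd and 77th at BME day 5. It ranked between 2871st and 3031st with collagen. As a share of all FPKM the family made up 0.176% to 0.384% at BME day 1, 0.0596% to 0.185% at BME day 5 and 0.0052% to 0.0057% with collagen.

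**Figure D1:**
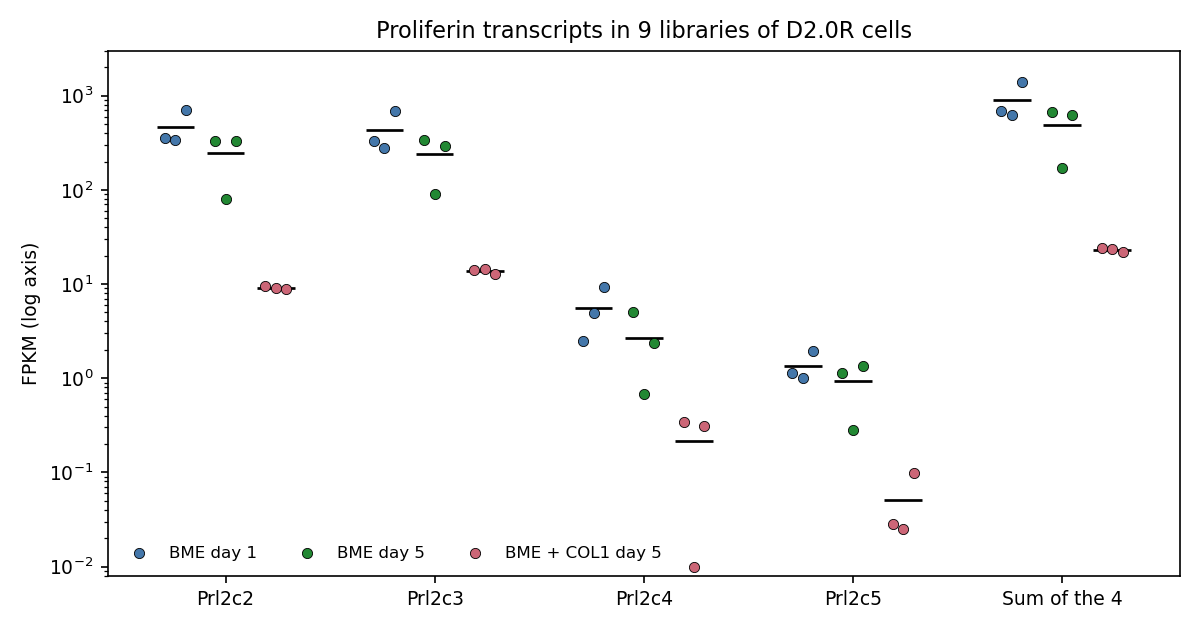
FPKM of each proliferin gene and of their sum (log axis), 1 point per library and 3 libraries per group, with a bar at the group mean. Collagen libraries (red) lie below all BME libraries for each gene, and the point for Prl2c4 at the bottom edge is a library listed at 0.0 FPKM, drawn at 0.01.

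Prl2c2 carried about as much of the signal as Prl2c3. Its level was 358.9, 334.7 and 706.1 FPKM in BME day 1 replicates a, b and c. At BME day 5 it was 330.4, 79.2 and 329.2 FPKM, and with collagen 9.60, 9.10 and 8.76 FPKM. All BME day 5 values lay below all BME day 1 values, though replicate a of each day differed only from 358.9 to 330.4 FPKM. Group means were 466.6 ± 208, 246.3 ± 145 and 9.16 ± 0.423 FPKM (SD, n = 3). The intervals that Cufflinks, the program that estimated the levels, printed around Prl2c2 were narrow, at most 3.84% of the value on BME and at most 12.3% with collagen. The spread between BME replicates was wider than that.

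Prl2c3 followed the same course. It stood at 331.4, 278.7 and 693.4 FPKM in BME day 1 replicates a, b and c. At BME day 5 it stood at 337.5, 91.3 and 293.3 FPKM, and with collagen at 13.9, 14.4 and 12.9 FPKM. The days on BME overlapped, and the collagen libraries did not overlap either of them. Group means were 434.5 ± 226, 240.7 ± 131 and 13.7 ± 0.752 FPKM (SD, n = 3).

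Prl2c4, the near-duplicate model at the Prl2c3 locus, was assigned little. Its values were 2.49, 4.94 and 9.29 FPKM at BME day 1 and 5.03, 0.685 and 2.38 FPKM at BME day 5. With collagen they were 0.343, 0.0 and 0.309 FPKM. The 2 models at this locus differ only at their ends, so the split between them rests on few bases. Added together, they gave 283.6 to 702.7 FPKM at BME day 1, 92.0 to 342.5 at BME day 5 and 13.2 to 14.4 with collagen.

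Prl2c5 was low throughout and lay near the limit of detection with collagen. It measured 1.13, 0.999 and 1.94 FPKM at BME day 1, 1.15, 0.280 and 1.35 at BME day 5, and 0.0281, 0.0253 and 0.0977 with collagen. Its share of the family was between 0.108% and 0.443% in the 9 libraries. The printed interval reached 0 in all 3 collagen libraries and in no BME library. It was the only member whose mean over the 9 libraries was under 1 FPKM, so it was left out of the fit across genes, which the other 3 members entered. Prl2c1, a relative 94.1% identical to Prl2c2 over the coding bases and placed at 27941211 to 27949577 of the same chromosome, is not a member. It was at 0.506 to 1.18 FPKM at BME day 1, 0.269 to 0.593 at BME day 5 and 0.0 to 0.0775 with collagen.

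The order of the members was the same in the means of all groups but for the leading pair. Prl2c2 and Prl2c3 overlapped in both BME groups, and both lay above Prl2c4 in every library. Prl2c4 lay above Prl2c5 in every library except BME + COL1 day 5 replicate b. With collagen, Prl2c3 lay above Prl2c2 in all 3 libraries. Of the FPKM at the 2 abundant loci, Prl2c2 took 51.8%, 54.1% and 50.1% at BME day 1 and 49.1%, 46.3% and 52.7% at BME day 5. It took 40.2%, 38.8% and 39.9% with collagen, below all BME libraries. The 2 loci were thus lower by unequal factors, as far as their reads could be told apart. How the shared reads were assigned was not tested.

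**Figure D2:**
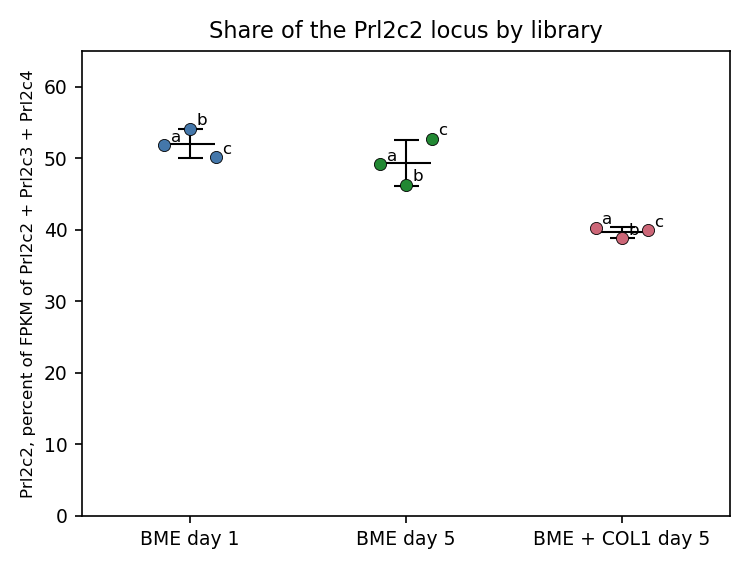
Share of the Prl2c2 locus in the FPKM of Prl2c2, Prl2c3 and Prl2c4 together, in percent, 1 point per library with the group mean and SD (n = 3). BME libraries sit between 46.3% and 54.1%, and collagen libraries between 38.8% and 40.2%.

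The comparison of matrices at day 5 asks what differed between quiescent cells and cells induced to proliferate. The mean of the family sum was 490.6 ± 277 FPKM on BME and 23.2 ± 0.964 FPKM on BME + COL1 (SD, n = 3), a ratio of 21.2. On the scale of log2(FPKM + 0.1), used for all differences here, the sum was -4.16 with a standard error of 0.49 (collagen minus BME). Prl2c2 differed by -4.47 (standard error 0.51), Prl2c3 by -3.91 (0.48), Prl2c4 by -3.04 (0.78) and Prl2c5 by -2.59 (0.52). The added 0.1 FPKM shrinks the differences of the last pair, whose ratios of mean FPKM were 12.4 and 18.4. Without BME day 5 replicate b the sum was -4.81, Prl2c2 -5.16, Prl2c3 -4.51, Prl2c4 -3.77 and Prl2c5 -3.19. Prl2c4 also moved to -2.41 without BME day 5 replicate a and to -2.34 without collagen replicate b. All 4 members had groups that did not overlap, lower with collagen, as had 32.1% of the 10497 genes tested (48.1% were higher without overlap), and nothing is read from that count because these values chose the members. A difference more negative than that of the sum was found in 53 genes (0.505% of those tested), Prl2c2 among them, and the median gene differed by 0.18. This rank too is only a description. The lowest BME library, replicate b, was still 7.17 times the highest collagen library. In bulk RNA, fewer cells making a message and less message per cell cannot be told apart.

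Between the days on BME the difference rested on single libraries. The mean of the sum was 908.0 ± 437 FPKM at day 1 and 490.6 ± 277 at day 5 (SD, n = 3), a log2 difference of -1.02 with a standard error of 0.49. The ranges overlapped. Without BME day 5 replicate b the difference was -0.38, without BME day 1 replicate c it was -0.65, and without both it was -0.01. Without BME day 5 replicate b alone, Prl2c2 differed by -0.41, Prl2c3 by -0.35, Prl2c4 by -0.48 and Prl2c5 by -0.06, and without BME day 5 replicate a Prl2c4 differed by -1.83. The setting that leaves out both was chosen after the values had been seen. Means without these libraries were 656.6 FPKM at day 1 and 650.2 at day 5. Of the members, Prl2c2 alone had days that did not overlap, where 37.1% of the genes tested were lower and 12.8% higher without overlap.

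The collagen libraries also lay far below BME day 1. The sum differed by -5.19 (standard error 0.49), and the ratio of mean FPKM was 39.2. Prl2c2 differed by -5.57 (standard error 0.51), Prl2c3 by -4.86 (0.48), Prl2c4 by -4.24 (0.78, or -3.55 without collagen replicate b) and Prl2c5 by -3.25 (0.52). All 4 members were lower without overlap, as were 38.3% of the genes tested, while 41.6% were higher. Only 2 of 10497 genes, Prl2c2 itself among them, had a more negative difference than the sum. Nothing is read from this rank, because these values chose the members. Since both comparisons use the collagen libraries, they are not separate evidence.

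The proliferin level varied far more between replicates on BME than most genes did. The SD of the log2 sum was 0.64 at BME day 1 and 1.11 at BME day 5, where the median gene had 0.10 and 0.18. A larger SD was found in 1.03% of the genes tested at day 1 and in 0.695% at day 5. With collagen the SD was 0.06, close to the median gene's 0.06, and 47.1% of genes had a larger one. Replicates a and b at day 1 and a and c at day 5 lay between 619.3 and 694.0 FPKM, so the spread came from the other BME library of each day. BME day 5 replicate b also differed from its group elsewhere, with a median gene deviation of -0.27 on the log2 scale (from the mean of all 9 libraries), where the other 8 libraries lay between -0.04 and 0.09. It had the lowest level of the proliferation marker Mki67 (4.88 FPKM, against 14.1 to 18.5 in the other BME libraries) and the highest of the nuclear RNA Neat1 (225.3 FPKM, against 44.6 to 63.6 in the other 8). Both genes were picked after their values had been seen. Their part in the proliferin level of this library was not tested. BME day 1 replicate c deviated less, at 0.09 for the median gene, against 0.01 in a and -0.01 in b. Its Mki67 (15.8 FPKM) lay between theirs, while its Neat1 was 63.6 FPKM, against 49.4 in a and 48.2 in b. Replicate c also stood apart in other genes in both directions, such as Areg (36.2 FPKM, against 16.2 and 17.1) and Pdgfb (1.67 FPKM, against 3.25 and 3.69). These genes too were picked after their values had been seen.

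The rest of the prolactin family was nearly silent. Of 23 other prolactin family genes in the tables, 22 were under 1 FPKM in every library, 12 of them at 0 throughout, and Prl2c1 was the highest at 1.18 FPKM. Of 15 trophoblast markers 14 were in the tables, all under 1 FPKM in every library and 7 at 0 throughout, among them the giant cell regulator Hand1. The highest was Eomes, a factor of trophoblast stem cells, at 0.809 FPKM. Proliferin messages were abundant on BME, then, while these placental genes were near or at 0.

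Genes around proliferin action were then compared in the fit across all genes. Of the 6 lists, 4 had genes to test, namely mannose 6-phosphate receptors and their enzymes, prolactin and growth hormone receptor signalling, promoter-binding factors, and mitogens with their receptors. Calls used limma on log2(FPKM + 0.1) with a Benjamini-Hochberg adjusted p under 0.05 over 10497 genes. At day 5, of 34 listed genes tested, 11 were higher with collagen, 18 were lower and 5 had no call, where 45.3% of all genes tested were higher and 30.3% lower. The median difference of the listed genes was -0.42, against 0.18 for all genes. That background depended on scaling. With values rescaled to TPM (FPKM divided by the library's summed FPKM) 3327 genes were higher and 4858 lower, against 4756 and 3179 here, and the median gene moved from 0.18 to -0.16.

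Of 5 genes of the mannose 6-phosphate route, 3 fell with collagen, none rose and 2 had no call, with a median of -0.52. At day 5, 30.3% of all genes tested were lower with collagen and 45.3% higher. Igf2r, the receptor that binds and internalises proliferin, was at 28.7, 23.3 and 26.2 FPKM in BME day 5 replicates a, b and c and at 11.2, 11.8 and 10.6 with collagen. The groups did not overlap, and the log2 difference was -1.21 (standard error 0.09, adjusted p = 2.29e-06). Gnptg, a subunit of the enzyme that starts the mannose 6-phosphate tag, differed by -1.29 (standard error 0.08, adjusted p = 1.25e-06). Nagpa, which uncovers the tag, fell by 0.52 (standard error 0.07, adjusted p = 0.000154). The second receptor M6pr (0.02, adjusted p = 0.851) and Gnptab, which encodes the catalytic subunits (-0.11, adjusted p = 0.463), were not called. Between the days on BME none of the 5 was called, where 9.09% of all genes were higher and 22.2% lower. Against BME day 1, where 34.2% of all genes were higher and 31.8% lower, collagen again had Igf2r, Gnptg and Nagpa lower, Igf2r from 27.3 ± 0.713 to 11.2 ± 0.583 FPKM (SD, n = 3).

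Prlr, the prolactin receptor, was between 0.008 and 0.0834 FPKM in the 9 libraries and was not tested. Ghr, the growth hormone receptor, was at 20.4 ± 2.80 FPKM on BME day 5 and 19.5 ± 0.627 with collagen (SD, n = 3), a difference of -0.06 that was not called (adjusted p = 0.644). Of 10 genes tested, 6 fell with collagen, 2 rose and 2 had no call, with a median of -0.47, where 30.3% of all genes tested were lower and 45.3% higher. Stat5a, a transcription factor that prolactin activates in mammary cells, fell from 10.995, 12.4 and 11.9 FPKM to 1.56, 1.57 and 1.62, a difference of -2.82 (standard error 0.12, adjusted p = 1.56e-07). Jak2, the kinase that both receptors use, differed by -1.50 (adjusted p = 1.9e-06), and Socs2, a feedback inhibitor, by -1.34 (adjusted p = 1.53e-05). Socs3, another feedback inhibitor, rose by 0.87 (adjusted p = 0.000159). The adaptor Grb2 was called higher by 0.34 (adjusted p = 0.0234), which as TPM turned to -0.01 and which lost the call in limma without collagen replicate a (adjusted p = 0.0753) or b (adjusted p = 0.0674). The 2 called higher and the 6 called lower thus included inhibitors on both sides.

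Between the days on BME, 2 of these genes rose and 2 fell, where 9.09% of all genes were higher and 22.2% lower. Stat5a rose from 5.93 ± 1.06 to 11.8 ± 0.734 FPKM (SD, n = 3), a difference of 0.99 (standard error 0.12, adjusted p = 0.000787), and Jak2 rose by 0.62 (adjusted p = 0.00367). Socs2 (-0.45, adjusted p = 0.031) and Socs3 (-0.47, adjusted p = 0.0224) fell, but both lost the call in a fit of only the 6 libraries compared (adjusted p = 0.0946 and 0.0866 in limma) and in other alternatives. The other 6 genes tested had no call. Against BME day 1, where 34.2% of all genes were higher and 31.8% lower, collagen had 5 of these genes lower. Socs3 was higher (0.40, adjusted p = 0.0175, but 0.0985 as TPM), and Stat5a differed by -1.82 (standard error 0.12, adjusted p = 2.24e-06).

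Factors known to act at the proliferin promoter split in direction. Of 9 AP-1, glucocorticoid receptor and GATA factors tested, 5 rose and 4 fell with collagen, with a median of 0.41. Over all genes tested 45.3% were higher and 30.3% lower, so both directions were frequent across all genes as well. Fos, an AP-1 subunit induced by mitogens, was at 1.41, 3.07 and 2.17 FPKM in BME day 5 replicates a, b and c and at 34.9, 36.8 and 27.8 with collagen. It rose by 3.90 (standard error 0.28, adjusted p = 2.31e-06). Jun, its partner, rose from 8.66, 4.93 and 7.08 FPKM to 34.9, 34.2 and 33.4, a difference of 2.33 (standard error 0.18, adjusted p = 3.16e-06), and Fosb rose by 3.34 (adjusted p = 2.23e-06). High Fos and Jun messages therefore stood in the libraries with the least proliferin. Junb (-0.50, adjusted p = 0.000569) and Fosl2 (-0.61, adjusted p = 0.000239), further AP-1 subunits, fell.

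Nr3c1, the glucocorticoid receptor, was at 11.9, 11.4 and 11.9 FPKM on BME day 5 and at 8.40, 8.67 and 7.86 with collagen. The difference was -0.49 (standard error 0.07, adjusted p = 0.000118). Gata3, one of the GATA factors that act on placental hormone genes in trophoblast giant cells, fell from 5.86, 4.90 and 6.60 FPKM to 2.98, 3.08 and 2.96 (-0.91, standard error 0.16, adjusted p = 0.000586). Gata2, the other one, was under 1 FPKM in every library, at 0.306 ± 0.095 FPKM on BME day 5 and 0.0167 ± 0.0125 with collagen (SD, n = 3), and was not tested. Between the days on BME 1 of the 9 rose and 2 fell, where 9.09% of all genes were higher and 22.2% lower. Nr3c1 rose by 0.50 (standard error 0.07, adjusted p = 0.00151), and Jun (-0.81, adjusted p = 0.011) and Junb (-0.39, adjusted p = 0.0126) fell, though in a limma fit of only those 6 libraries neither was called (adjusted p = 0.0571 and 0.0552). Against BME day 1, collagen had 5 higher and 3 lower, where 34.2% of all genes were higher and 31.8% lower. Fos differed by 3.31 (standard error 0.28, adjusted p = 1.06e-05) and Gata3 by -1.06 (adjusted p = 0.00034).

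Mitogens and their receptors, the class of signal that first led to proliferin, also split. Of 10 tested, 4 rose and 5 fell with collagen at day 5, with a median of -0.73. Among all genes tested 45.3% were higher and 30.3% lower. The EGF receptor ligands Areg and Hbegf rose by 1.87 (standard error 0.41, adjusted p = 0.00235) and 1.46 (standard error 0.15, adjusted p = 1.67e-05), Hbegf from 48.4 ± 11.4 to 130.9 ± 1.26 FPKM (SD, n = 3). The PDGF chain Pdgfb rose by 1.16 (adjusted p = 0.00259). Fgf2, a growth factor for fibroblasts and endothelium, fell from 10.5, 12.2 and 8.29 FPKM to 1.26, 1.44 and 1.43 (-2.80, standard error 0.18, adjusted p = 1.36e-06). The largest falls were those of the PDGF receptors, Pdgfrb at -4.53 (standard error 0.16, adjusted p = 6.75e-08) and Pdgfra at -2.85 (standard error 0.17, adjusted p = 7.56e-07). Between the days on BME 1 rose, Pdgfrb by 0.99 (adjusted p = 0.00326), and 3 fell, where 9.09% of all genes were higher and 22.2% lower. Against BME day 1, collagen had 1 higher and 6 lower, where 34.2% of all genes were higher and 31.8% lower.

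**Figure D3:**
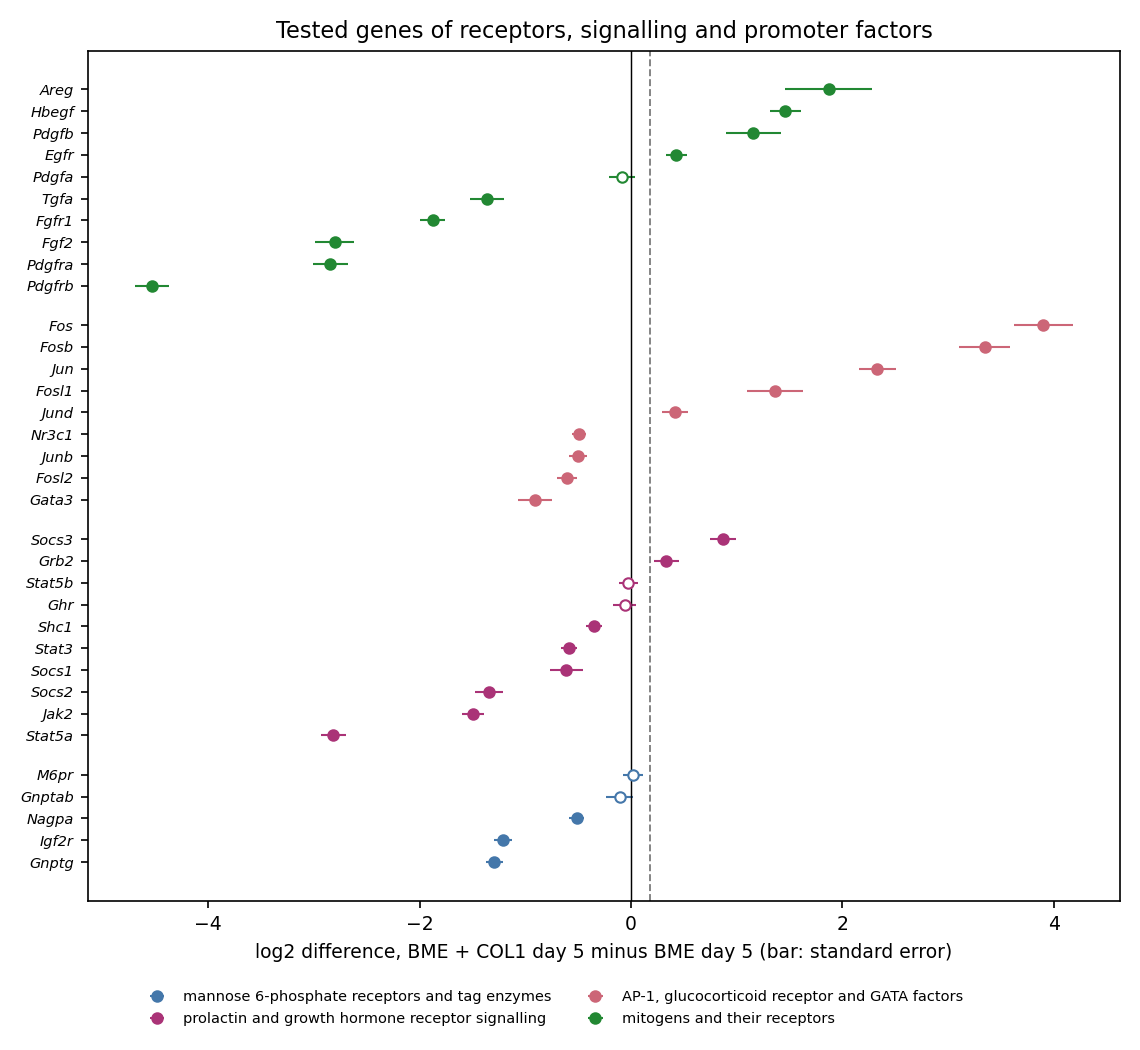
Difference between BME + COL1 day 5 and BME day 5, in log2(FPKM + 0.1), for the 34 listed genes tested, with the standard error as a bar and colour by list. Filled points passed the limma test, open points did not, and the dashed line marks the median of all genes at 0.18; Fos and Jun lie at the right and the PDGF receptors at the left.

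Cell type markers moved with the same comparison. The epithelial keratins Krt8 (499.6 ± 95.4 to 1313 ± 19.3 FPKM) and Krt18 (467.9 ± 95.9 to 1052 ± 37.5 FPKM) and the adhesion protein Cdh1 (16.4 ± 0.768 to 31.1 ± 0.953 FPKM) rose with collagen (SD, n = 3), which are the 3 of 6 epithelial markers tested. Among all genes tested at day 5, 45.3% were higher with collagen and 30.3% lower, which is the background for each marker list. The other 3 epithelial markers were not tested. Epcam was at 0.730 ± 0.173 FPKM on BME day 5 and 0.821 ± 0.0218 with collagen, Krt19 at 0.0154 ± 0.015 and 0.0444 ± 0.0249, and Cldn7, without overlap, at 0.136 ± 0.0381 and 0.0303 ± 0.0159 (SD, n = 3). The summed level of the 7 fibroblast markers was 20.04 to 27.9 FPKM at BME day 1, 26.4 to 36.1 at BME day 5 and 4.46 to 4.64 with collagen. The 3 tested, Pdgfra, Pdgfrb and Col1a1, all fell, and the former pair also belong to the list of mitogen receptors. Col1a2, not tested, was at 0.035 ± 0.016 FPKM on BME day 5 and, without overlap, at 0.105 ± 0.00654 with collagen (SD, n = 3). Lum was at 0 in every library, and Dcn and Thy1, defining fibroblast genes, were at 0 in all collagen libraries and averaged 0.00369 and 0.00436 FPKM on BME day 5. All 5 endothelial markers were under 1 FPKM in every library and were not tested. Their summed level was 0.235 to 0.43 FPKM at BME day 1, 0.316 to 0.355 at BME day 5 and 0.026 to 0.038 with collagen. Vwf (0.275 ± 0.0432 on BME day 5 and 0.0121 ± 0.0033 with collagen) and Kdr (0.0366 ± 0.0175 and 0.0012 ± 0.0021) did not overlap (SD, n = 3). Pecam1 and Tek overlapped, and Cdh5 was at 0 in both groups. Of 5 haematopoietic markers only the lysosomal Cd68 was tested, and it fell from 2.95 ± 0.324 to 1.02 ± 0.103 FPKM (SD, n = 3), while Ptprc, not tested, was at 0.014 ± 0.0045 on BME day 5 and, without overlap, at 0.0573 ± 0.0167 with collagen. The part of these changes in the proliferin difference was not tested.

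No other gene model in the tables lay between the proliferin loci, so the nearest genes were compared instead. Gpr137b-ps, a pseudogene 140421 bases before the loci, was at 14.6 ± 1.21 FPKM at BME day 1, 16.0 ± 2.11 at BME day 5 and 8.31 ± 0.276 with collagen (SD, n = 3). It fell by 0.93 between the matrices at day 5 (standard error 0.10, adjusted p = 3.2e-05). Gpr137b, a lysosomal membrane protein gene 165781 bases after them, was at 58.0 ± 7.64, 79.3 ± 10.9 and 23.6 ± 0.920 FPKM in the same order. It fell by 1.73 (standard error 0.12, adjusted p = 2e-06), and it rose by 0.45 between the days on BME (adjusted p = 0.0264). Both neighbours fell with collagen by less than the proliferin sum, at -0.93 and -1.73 where the sum was -4.16. Being a gene and its pseudogene, they may also share reads.

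The genes closest in pattern to the proliferin sum were sought among 7629 genes that averaged 5 FPKM or more. Closeness was the root mean square of the log2 differences over the 9 libraries, each gene centred on its own mean, and the median gene stood at 2.39. The nearest was Col6a3, a chain of collagen VI, at 0.557 (Pearson r = 0.99 across the 9 libraries, as a description). Its level was 13.5, 13.3 and 19.7 FPKM at BME day 1, 13.2, 2.92 and 11.8 at BME day 5, and 0.869, 0.873 and 0.781 with collagen. Like proliferin it was highest in BME day 1 replicate c and, among BME libraries, lowest in BME day 5 replicate b. Others among the 8 nearest were Nfatc1, a calcium-regulated transcription factor (0.610), Sdc3, a heparan sulphate proteoglycan (0.675), and Mlph, a melanosome transport adaptor (0.698). Anpep, an aminopeptidase (0.766), Kazald1, a secreted protease inhibitor-like protein (0.787), and Slc7a11, the cystine transporter (0.794), also belonged to them. Slc7a11 went from 39.6 ± 4.91 FPKM at BME day 1 and 23.9 ± 2.52 at BME day 5 to 2.33 ± 0.165 with collagen (SD, n = 3). The measure rests on 9 libraries of 3 groups that also shared their scaling, and it says nothing of common control.

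**Figure D4:**
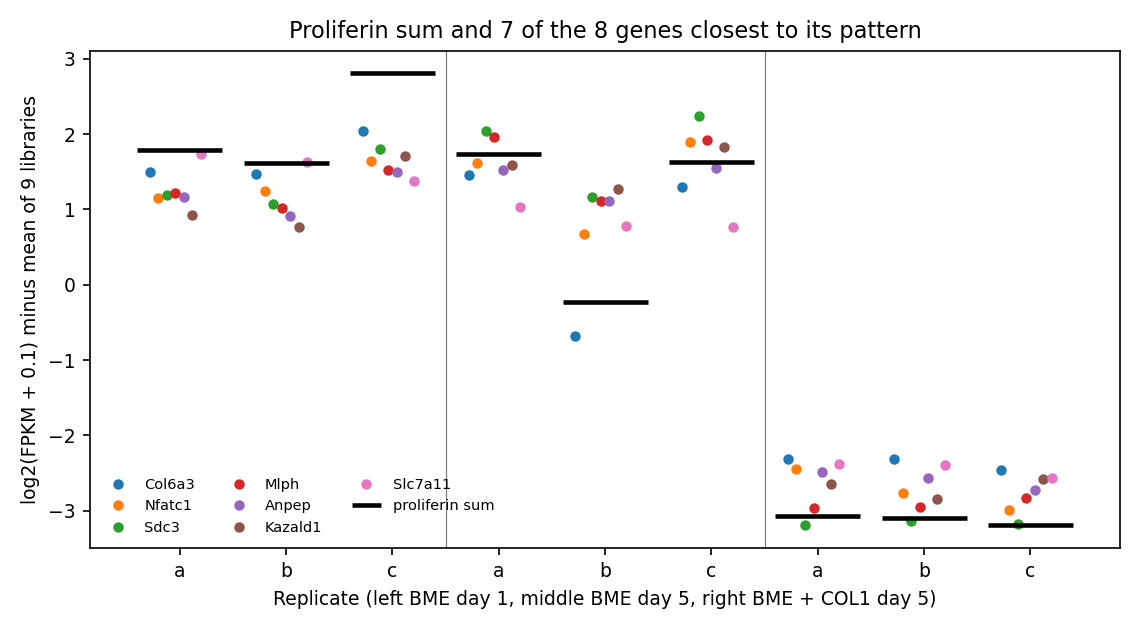
Centred log2(FPKM + 0.1) of the proliferin sum (black bars) and of 7 of the 8 genes nearest to it (coloured points) in each of the 9 libraries, with vertical lines between groups. All lie low in the collagen libraries, and Col6a3 alone comes close to the proliferin sum in BME day 5 replicate b.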

How the data were processed

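RNA from 3 biological replicates of each of 3 groups of D2.0R cells was sequenced (HiSeq2500). Per the submitters' processing notes, the authors used CASAVA 1.8.4, Trimmomatic 0.30, TopHat2 2.0.8 and Partek, with builds mm9 and NCBIM37. The deposited values are FPKM per transcript model from Cufflinks, whose version, treatment of strand and treatment of reads that match several loci are not given in the sources used here. The study tested genes in Partek from alignments, which FPKM do not allow.

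FPKM were summed over models per gene (30563 models, 23309 genes). The 10497 genes that averaged 1 FPKM or more across libraries were fitted as log2(FPKM + 0.1) with limma 3.58.1 in R 4.3.3, with an intensity trend, 3 group means and 6 degrees of freedom. Benjamini-Hochberg adjustment ran over all genes fitted (threshold 0.05). The fit was tested on simulated data. Read depth, summed over models, was 7.21 to 9.37 gigabases per library. Each p-value weighs a difference of group means against the spread between these replicates. That spread was pooled over the 3 groups and drawn towards the trend over all genes. The groups differed in it, with a median SD of 0.18 at BME day 5 and 0.06 with collagen (log2). Sequences were compared with Biopython 1.88 and BLAST 2.17.0 on mm9 with GENCODE vM1, and motif shares come from RefSeq promoters of GRCm38.p6.

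The members and lists were chosen with earlier results of these data known. Genes named are the members, 8 genes fixed by their known role, up to 3 genes per list called in each direction with the largest difference at day 5, the 8 genes closest in pattern (of which 1 is not reported here), the nearest neighbours, and marker genes averaging 1 FPKM or more. Cish, Egf, Ereg, Fgf1 and Fgfr2 did not reach 1 FPKM. Alternatives are given in the closing section.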

Additional observations from a re-analysis of the deposited data

How the results depend on the processing

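The summed proliferin level kept its direction in all alternatives run. Collagen minus BME at day 5 was -4.81 to -3.82 when each library was left out in turn and -4.81 to -4.11 otherwise, and collagen minus BME day 1 was -5.41 to -4.82 and -5.42 to -4.82. BME day 5 minus day 1 was -1.37 to -0.38 with 1 library left out. It came to -0.01286 without both BME day 1 replicate c and BME day 5 replicate b (added after seeing the data), where Prl2c3 turned to 0.05013 and Prl2c5 to 0.212. Prl2c4 (collagen minus BME day 5) was -1.43 with 1 FPKM added, and Prl2c5 was -0.83 with 1 FPKM added, -3.87 with 0.01 added and -3.54 as TPM.

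Among listed genes, Grb2 turned to -0.008766 as TPM. Between the days on BME the 4 called higher became 8 as TPM, 10 with median-ratio scaling and 8 without both libraries, and the 7 called lower became 1 in a fit of only the 6 libraries compared and 4 without a filter. The calls over all genes moved the same way. Those higher went from 954 to 1534, 1971 and 1931, and those lower from 2327 to 618 and 1320, in the same order. Against BME day 1 the 7 called higher with collagen became 4 as TPM, where those over all genes went from 3588 to 2638. With 1 library left out, called higher and lower were 10 to 11 and 18 to 20 at day 5, 4 to 6 and 5 to 9 between days, and 5 to 8 and 17 to 19 against day 1. Over all genes they were 4344 to 4840 and 2907 to 3574 at day 5 and 538 to 1248 and 1032 to 3316 between days. Against day 1 they were 3035 to 4268 and 2940 to 3792.

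Replicates of the same letter did not deviate together (correlations -0.23 to 0.10), and the main fit did not pair letters. With 3 libraries per group such correlations cannot exclude a pairing or a shared batch. A replicate block cannot move a difference of group means in this balanced design (-4.164 for the sum at day 5). It left 11 listed genes called higher and 18 lower at day 5, 4 and 7 between days, and made 8 and 17 of the 7 and 17 against day 1. Over all genes the block fit called 4713 higher and 3126 lower at day 5, 858 and 2061 between days, and 3533 and 3275 against day 1.

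The causes of these shifts were not tested. Prl2c5 with collagen is at the limit of this depth, and reads shared by Prl2c2 and Prl2c3 limit their split at any depth.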
